A study of Mus musculus with 4 samples.

Results

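The 10 matricellular genes described here were *Spp1*, *Mgp*, *Postn*, *Tnc*, *Thbs1*, *Thbs2*, *Thbs4*, *Sparc*, *Ctgf* and *Cyr61*, out of 27998 genes in the count tables. They were taken by name as a list that had been chosen on the UMIs seen for such genes in these same libraries, so their levels and the differences between strains are a description and carry no test. Single-cell RNA was measured in muscle stem cell sorts from 4 mouse strains, with 1 library per strain made from the pooled lower hindlimbs of 2 mice. B10 (C57/Bl10ScsSn, 15 weeks) and DBA (DBA/2, 13 weeks) were the controls without the disease allele. The *mdx* library (C57BL/10ScSn-Dmdmdx, 11 weeks) and the D2-*mdx* library (D2.B10-Dmdmdx, 14 weeks) carried the *mdx* mutation of the dystrophin gene *Dmd* in every cell of the animal. In all 4 strains, cells positive for ITGA7 and VCAM1 and negative for Cd11b, Sca1, Cd45 and Cd31 were sorted. With 1 library per strain, strain, age, sort and library cannot be told apart, and every interval below covers counting error only. Intervals of levels and ratios take UMIs as independent, so they do not cover the spread between cells and are too narrow where UMIs lie in few cells.

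Matricellular proteins are secreted into the extracellular matrix, where they signal to cells through integrins and other surface receptors rather than acting mainly as scaffold. Most are scarce in resting adult tissue and abundant in developing or injured tissue, and in muscle they are known from regeneration, inflammation and fibrosis. Macrophages, fibroblasts and pericytes are well-known sources, so a transcript found in a droplet with a muscle stem cell (MuSC) can come from that cell or from RNA released by a broken cell of another type.

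Unique molecular identifiers (UMIs, 1 per captured transcript) were counted in 4581 cells of B10, 6313 of *mdx*, 3279 of DBA and 5756 of D2-*mdx* after filtering, with a median of 6676.5 to 10431 UMIs per cell. The libraries shared 5 to 16 barcodes in each pair. Clusters that expressed MuSC or myoblast markers gave 4417 and 2698 myogenic cells in the controls B10 and DBA and 4823 and 4158 in *mdx* and D2-*mdx*. These were 96.4%, 82.3%, 76.4% and 72.2% of the cells, in that order, and the rest were mainly pericyte-like, glial-like, endothelial-like, Schwann-like and white blood cell-like. A level below is the UMIs of a gene per 1000000 UMIs of the same cells (CPM), and because each transcript is counted once at its 3′ end, levels of different genes can be set side by side. *Dmd* itself stood at 323 CPM in B10 and 287 CPM in DBA myogenic cells against 121 CPM in *mdx* and 94.5 CPM in D2-*mdx*, lower in both libraries labelled as mutant.

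The genes lie apart in the mouse genome (GRCm38, all protein coding, whole gene spans). *Spp1* lies at chr5:104435118-104441050 on the plus strand, *Mgp* at chr6:136872435-136875823 on the minus strand, *Postn* at chr3:54361109-54391037 on the plus strand and *Tnc* at chr4:63959785-64047015 on the minus strand. *Thbs1* lies at chr2:118111876-118127133 (plus), *Thbs2* at chr17:14665500-14694235 (minus) and *Thbs4* at chr13:92751590-92794818 (minus). *Sparc* lies at chr11:55394500-55423183 (minus), *Ctgf* (*Ccn2*) at chr10:24595442-24598683 (plus) and *Cyr61* (*Ccn1*) at chr3:145646976-145649981 (minus).

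Promoters are shown for *Spp1* and *Postn*, which had the largest ratios in myogenic cells of *mdx* over B10, and for *Cyr61*, a textbook target of the TEAD transcription factors that act with YAP. *Spp1* and *Postn* were picked for printing after their values were seen. Each run is the 250 bases before the RefSeq transcript start (GRCm38.p6), 5′ to 3′ on the strand of the gene, and capitals mark the motifs searched for. *Spp1* is chr5:104434861-104435110 (plus), *Postn* is chr3:54360857-54361106 (plus) and *Cyr61* is chr3:145649986-145650235 (minus).
Spp1: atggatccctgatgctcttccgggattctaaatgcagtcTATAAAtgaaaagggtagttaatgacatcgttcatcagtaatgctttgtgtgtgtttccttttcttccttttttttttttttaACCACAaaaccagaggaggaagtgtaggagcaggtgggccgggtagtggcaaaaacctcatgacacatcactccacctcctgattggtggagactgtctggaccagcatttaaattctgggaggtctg
Postn: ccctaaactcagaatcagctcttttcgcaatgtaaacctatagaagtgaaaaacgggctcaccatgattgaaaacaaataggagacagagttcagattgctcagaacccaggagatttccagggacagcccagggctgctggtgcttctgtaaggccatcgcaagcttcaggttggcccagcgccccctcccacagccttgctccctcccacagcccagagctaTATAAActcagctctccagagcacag
Cyr61: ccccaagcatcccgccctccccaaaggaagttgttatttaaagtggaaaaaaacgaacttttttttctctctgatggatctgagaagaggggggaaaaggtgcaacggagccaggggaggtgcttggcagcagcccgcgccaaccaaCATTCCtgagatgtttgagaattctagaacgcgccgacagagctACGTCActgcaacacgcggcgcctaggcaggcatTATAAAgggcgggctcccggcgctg
5 motifs were searched on both strands. The TEAD site was taken as the letters GGAATG and the AP-1 site as TGANTCA. For factors of the RUNX family the letters were ACCACA, and for the short form of a cyclic AMP response element (CRE) they were TGACGT. The TATA box was read as TATAAA. None of the matches overlapped another. Positions are counted from the transcript start, with -1 the base before it. The *Spp1* window held the RUNX letters at -128 to -123 and the TATA box letters at -211 to -206, and the *Postn* window held the TATA box letters at -26 to -21. The *Cyr61* window held the TEAD letters on the opposite strand at -103 to -98, the CRE letters on the opposite strand at -59 to -54 and the TATA box letters at -25 to -20. Among all 32851 promoter windows of that length, 12.6% held the TEAD letters, 6.75% the AP-1, 14.0% the RUNX, 6.47% the CRE and 12.4% the TATA box letters. A match of letters is a description and says nothing about which factor is bound in these cells.

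The myogenic cells of both diseased libraries held far more *Spp1*, *Postn*, *Mgp*, *Tnc* and *Thbs1* RNA than those of their controls, and less *Thbs2*. Of the 10 genes, 9 reached 10 CPM in at least 1 library of each disease comparison, all but *Thbs4*. In *mdx* against B10, 6 of the 9 were at least 2-fold higher and 1 was at least 2-fold lower, where 4.54% of the 8466 genes tested were higher and 5.09% lower by the same rule. In D2-*mdx* against DBA, 6 of the 9 were likewise higher and 1 lower, against a background of 5.79% and 5.90% of 8496 genes. The genes were chosen with such differences known, so nothing is read from that excess. The 2 that differed between the comparisons were *Sparc*, past 2-fold only in *mdx* over B10, and *Cyr61*, past 2-fold only in D2-*mdx* over DBA, and those differences between comparisons were not tested. In D2-*mdx* against *mdx*, *Spp1* was at least 2-fold higher and *Mgp* and *Postn* at least 2-fold lower, where 1.97% of 8176 genes were higher and 1.58% lower. In DBA against B10, 4 genes reached the minimum (*Thbs2*, *Sparc*, *Ctgf* and *Cyr61*) and 0 passed 2-fold in either direction, where 1.80% of 8342 genes were higher and 1.77% lower. The median log2 ratio over all genes tested lay between -0.08 and 0.02 in the 4 comparisons, and the comparisons share libraries.

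**Figure D1:**
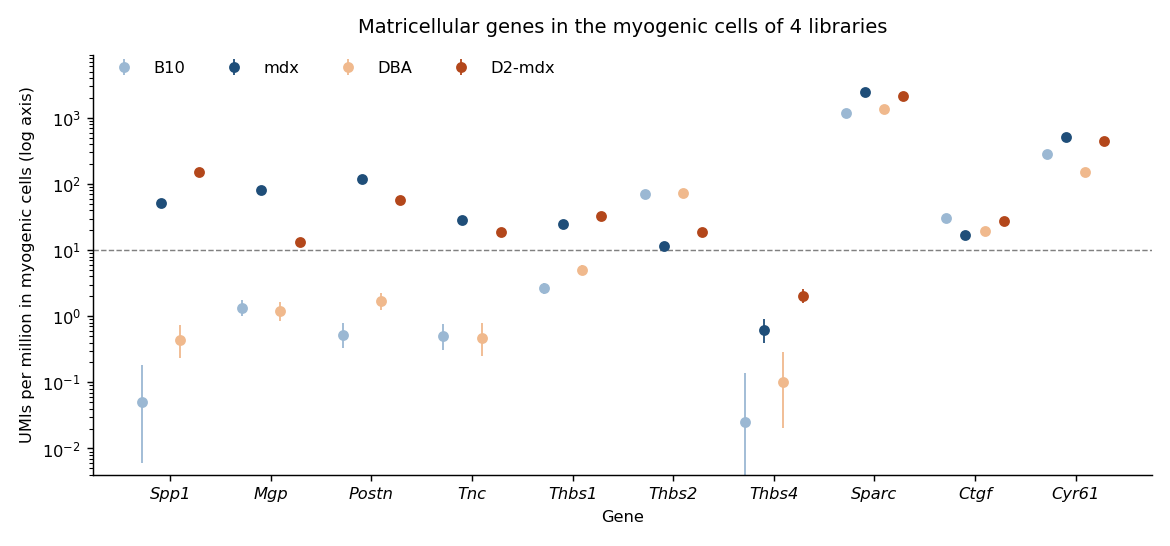
Level of each of the 10 genes in the myogenic cells of the 4 libraries, in CPM on a log axis, with 95% exact Poisson intervals as bars. The dashed line marks 10 CPM. *Spp1* sits at 0.0501 CPM in B10 and 150 CPM in D2-*mdx*, while *Thbs2* sits higher in both controls than in both diseased libraries.

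**Figure D2:**
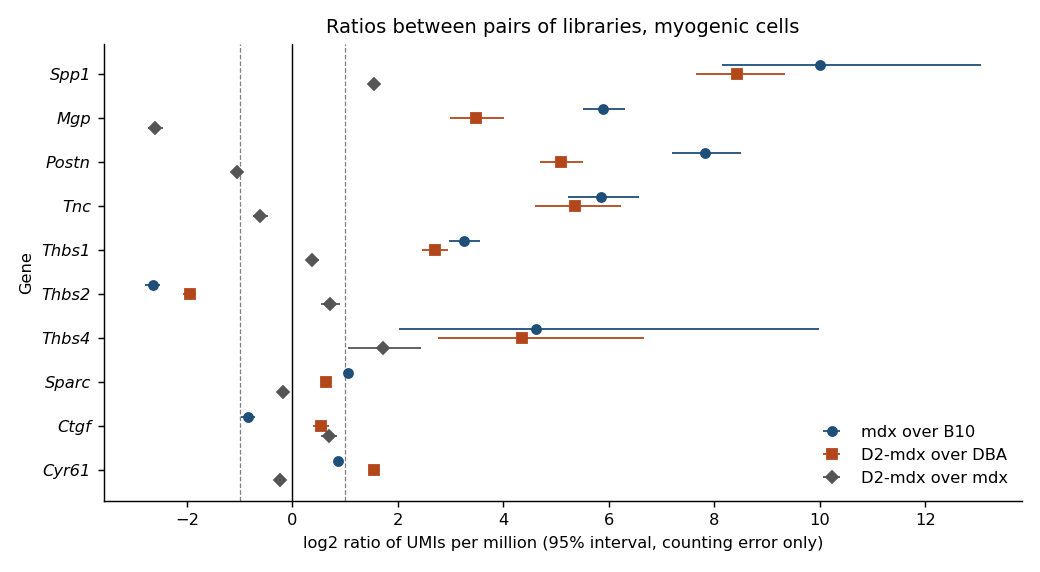
Log2 ratio of CPM in myogenic cells for each gene in *mdx* over B10, D2-*mdx* over DBA and D2-*mdx* over *mdx*, with 95% exact intervals from the pair of counts. Dashed lines mark 2-fold. *Spp1* stands at 10.01 in *mdx* over B10 and 8.44 in D2-*mdx* over DBA, and *Ctgf* lies below 0 in the first and above 0 in the second.

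*Spp1* encodes osteopontin, a secreted phosphoprotein that binds integrins and CD44 and is made in quantity by activated macrophages. Control myogenic cells held 2 *Spp1* UMIs in B10 (0.0501 CPM) and 13 in DBA (0.432 CPM), and diseased ones 2079 in *mdx* (51.5 CPM, 95% exact Poisson interval 49.3 to 53.7) and 5191 in D2-*mdx* (150 CPM, 146 to 154). Both diseased libraries were far above both controls, and D2-*mdx* was 2.91-fold above *mdx*. The log2 ratio was 10.01 in *mdx* over B10, with a counting interval of 8.15 to 13.05 that is wide because B10 had 2 UMIs. It was 8.44 (7.66 to 9.35) in D2-*mdx* over DBA. With myogenic cells set by a marker gate, which left 38 cells in B10 and 150 in *mdx*, *mdx* over B10 was 0.72 and no longer past 2-fold. A library with 0 UMIs took a floor of 3 UMIs in such ratios, so 0.72 can rest on that floor and is not read as a smaller difference. Myogenic cells were not the richest source of *Spp1*: the white blood cell-like cells stood at 613 CPM in *mdx* and 8647 CPM in D2-*mdx*, and the Schwann-like cells at 1147 and 2293 CPM. The 152 white blood cell-like cells of D2-*mdx* carried 70.2% of all *Spp1* UMIs of the kept cells, although the sort had excluded cells positive for Cd45 or Cd11b.

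Among myogenic cells, *Spp1* was mostly in cycling cells. The cycling progenitor-like class stood at 512 CPM in *mdx* (485 to 540, 179 cells) and 692 CPM in D2-*mdx* (670 to 714, 322 cells). It made up 3.71% and 7.74% of the myogenic cells of these libraries and held 65.6% and 71.8% of their *Spp1* UMIs. The DMD-enriched-like class, with 975 cells in *mdx* and 589 in D2-*mdx* against 36 in B10 and 22 in DBA, came next at 42.7 CPM in *mdx* and 74.2 CPM in D2-*mdx*. MuSC-like cells outside the cluster led by *Esm1* stood at 5.01 CPM in *mdx* and 43.4 CPM in D2-*mdx*. These low values lay close to those of unrelated classes: endothelial-like cells stood at 4.54 CPM (2.18 to 8.35) in *mdx* and 30.3 CPM (19.4 to 45.1) in D2-*mdx*, and pericyte-like cells at 3.96 and 32.6 CPM. The intervals of MuSC-like and endothelial-like cells overlapped in both libraries. In the controls, the 17 cycling cells of B10 held no *Spp1* UMI, which allows up to 10.2 CPM, and the 31 cycling cells of DBA held 5.

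The *Spp1* ratio of D2-*mdx* over *mdx* had a different size in each class. The log2 ratio was 0.44 (0.35 to 0.53) in cycling cells, 0.80 (0.62 to 0.97) in DMD-enriched-like cells and 2.49 (2.25 to 2.74) in all MuSC-like cells, and it was 3.04 (2.38 to 3.78) in pericyte-like and 4.31 (3.22 to 5.66) in glial-like cells. The summed level of 8 white blood cell markers in myogenic cells had the same order of libraries, at 1.63 CPM in B10 and 7.68 in DBA, and 24.0 in *mdx* and 97.6 in D2-*mdx*, and its part in the *Spp1* ratio was not tested. Among myogenic cells without a UMI of any marker of white blood cells, fibroblasts or pericytes other than *Dpt* and *Cspg4* (3142 cells in *mdx* and 1535 in D2-*mdx*, a selection added after seeing the data), *Spp1* stood at 49.4 CPM in *mdx* and 44.1 CPM in D2-*mdx*, a log2 ratio of -0.16. That selection also lowered the share of cycling cells in D2-*mdx* from 7.74% to 2.74%, against 3.71% to 3.06% in *mdx*.

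**Figure D3:**
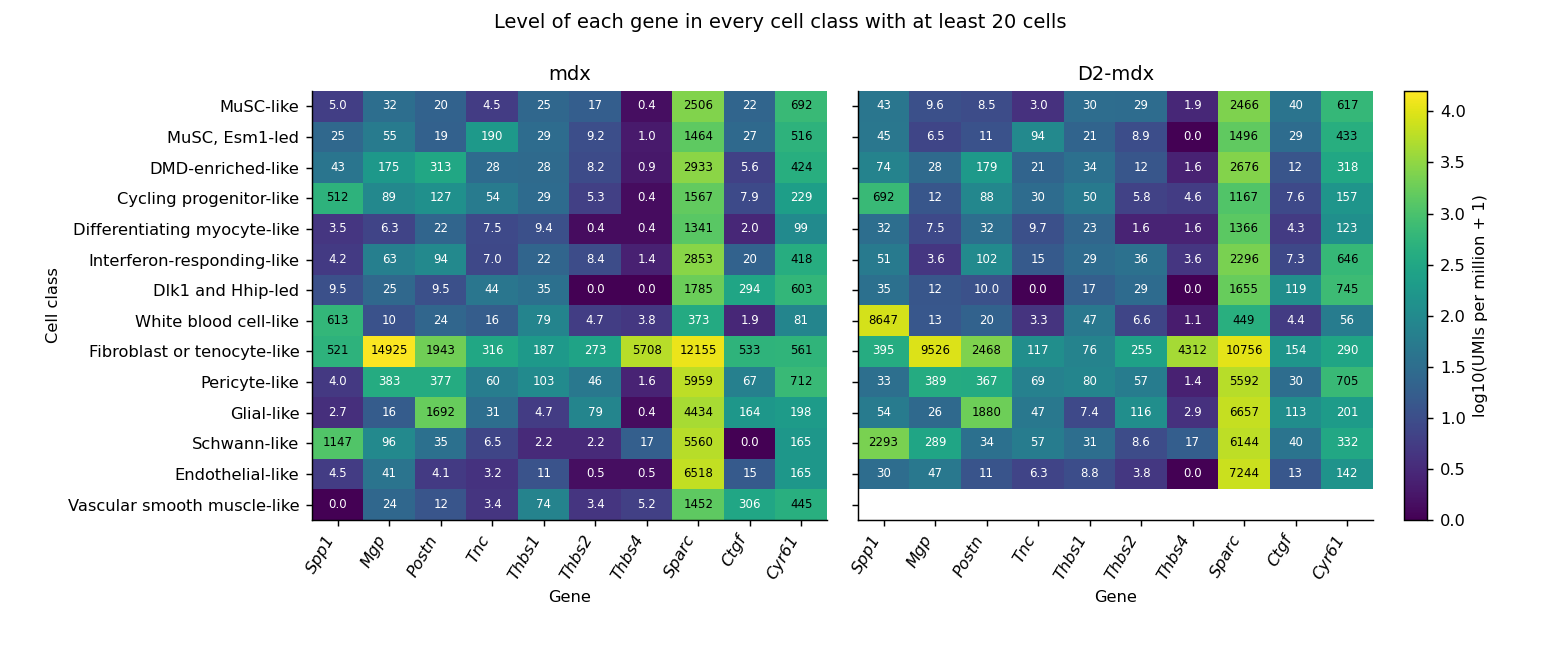
Level of each gene in each cell class of the *mdx* and D2-*mdx* libraries, with CPM printed in each field and log10 of CPM + 1 as the colour, for classes of at least 20 cells. Vascular smooth muscle is blank in D2-*mdx* (17 cells). *Spp1* is high in white blood cell-like, Schwann-like, fibroblast-like and cycling cells. *Mgp*, *Postn*, *Tnc*, *Thbs2*, *Thbs4*, *Sparc* and *Ctgf* are highest in fibroblast-like cells of both libraries.

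To separate UMIs gathered in few cells from UMIs spread evenly, every cell was thinned to 3000 UMIs and the cells with at least 3 UMIs of a gene were counted. That number was set beside the number an even spread of the same UMIs over the same cells would give. In *mdx*, 44 of 4823 myogenic cells held at least 3 *Spp1* UMIs where an even spread gives 0.654, and they carried 69.2% of the thinned UMIs, up to 39 in 1 cell. In D2-*mdx* it was 103 of 4158 cells against 13.4, with 58.8% of the UMIs and up to 49 in 1 cell. Without thinning, 103 cells of *mdx* held at least 3 *Spp1* UMIs against 78.5 and 222 cells of D2-*mdx* against 612. The call at 3 UMIs was thus lost in both libraries without thinning, and in D2-*mdx* it was also lost at 2 UMIs. The unthinned UMIs still lay in only 315 cells of *mdx* and 1026 of D2-*mdx*, where an even spread gives 1603 and 2732. Of the thinned cells with at least 3 UMIs, 31 of the 44 and 89 of the 103 were cycling progenitor-like.

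Outside the cycling class the 2 diseased libraries looked different. In *mdx*, 2.20% of the other myogenic cells held *Spp1*, with 78 cells at 1 UMI and 13 at 3 or more. In D2-*mdx*, 9.83% did, with 340 cells at 1 UMI and 14 at 3 or more. In MuSC-like cells of D2-*mdx* outside the *Esm1*-led cluster, 9.24% of cells held *Spp1*, 225 of the 242 with 1 UMI each. The endothelial-like cells of that library, which should lack the gene, held it in 12.2% (exact binomial interval 6.26 to 20.8%) of 90 cells, near the 13.2% (12.2 to 14.2%) of all myogenic cells, at median depths of 7608 and 6475.5 UMIs before thinning. Unthinned, the shares were 23.3% and 24.7%. The 9.24% of MuSC-like cells of D2-*mdx* outside the *Esm1*-led cluster thus lay within the endothelial-like interval. The source of their *Spp1* UMIs was not tested. In *mdx* the endothelial-like cells held *Spp1* in 1.58% (0.432 to 3.998%) of 253 cells and the myogenic cells in 3.40% (2.91 to 3.95%), or 3.95% and 6.53% unthinned.

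**Figure D4:**
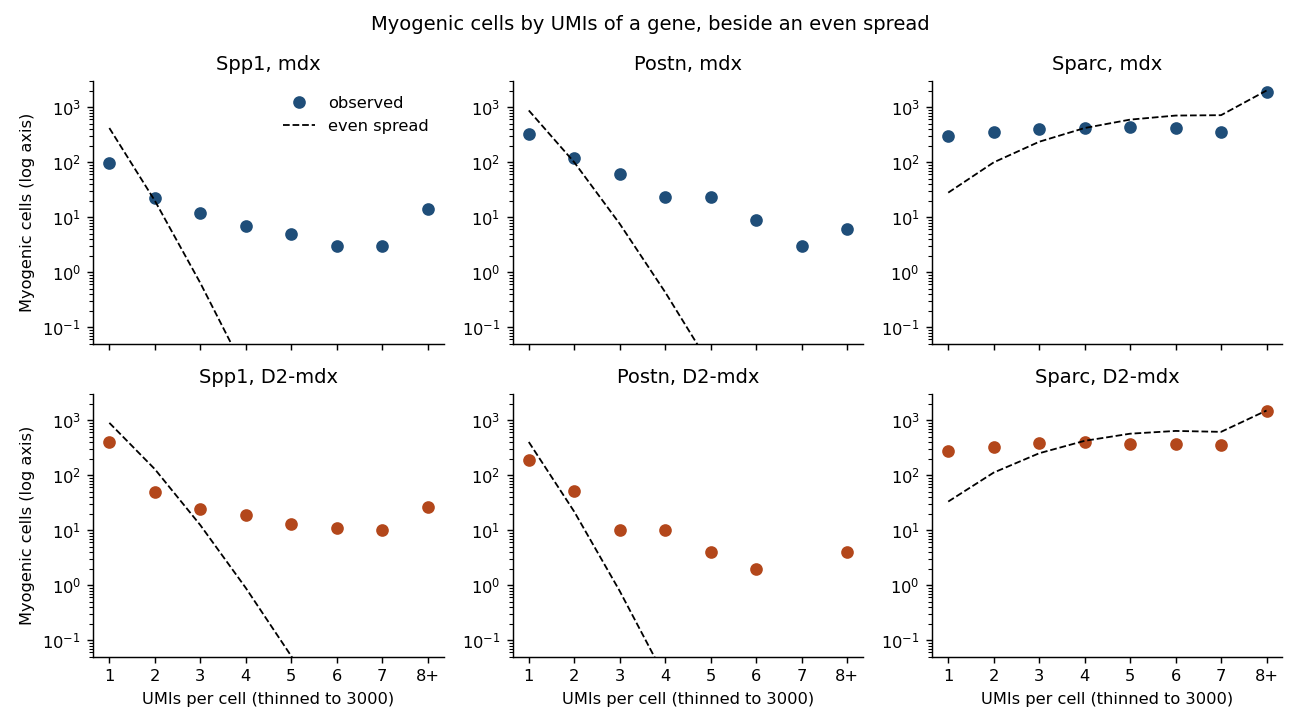
Number of myogenic cells by UMIs per cell after thinning to 3000 UMIs, for *Spp1*, *Postn* and *Sparc* in *mdx* and D2-*mdx*, observed (points) and under an even spread of the same UMIs (dashed line), with cells on a log axis. The last position pools 8 or more UMIs. *Spp1* and *Postn* have cells far to the right of the even spread, while most cells hold several *Sparc* UMIs.

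Most *Spp1*-rich cycling cells carried muscle genes, as did most cycling cells without *Spp1*. In *mdx*, 30 of the 31 cycling cells with at least 3 *Spp1* UMIs held *Cdh15* (M-cadherin) or *Des* (desmin) after thinning, 9 held *Myod1* and 10 held *Pax7* or *Myf5*, and 0 held a UMI of *Ptprc*, the gene for Cd45. In D2-*mdx*, 72 of 89 held *Cdh15* or *Des*, 37 held *Myod1*, 12 held *Pax7* or *Myf5*, and 0 held a *Ptprc* UMI. The shares with *Cdh15* or *Des* were 96.8% and 80.9%, against 91.5% and 78.1% of the cycling cells without *Spp1*. These muscle genes were among the markers that named the myogenic clusters, so their presence follows in part from how the cells were chosen. A count of 0 at 3000 UMIs limits the cells with a UMI (to 9.68% and 3.37%) and not the cells that express the gene. *Tyrobp* or *Fcer1g*, adaptors of myeloid cells, were seen in 1 of the 31 and 5 of the 89 cells, and in 1.71% and 3.97% of the cycling cells without *Spp1*. Over all 8 white blood cell markers and all myogenic cells, 12 of the 103 *Spp1*-rich cells of D2-*mdx* (11.7%) held at least 2 such UMIs against 2.91% of those without *Spp1*, and 29.1% against 19.9% held any. In *mdx* it was 0 of 44 against 0.580%, and 4.55% against 6.14%. The part of white blood cell RNA or of a second cell in the D2-*mdx* barcodes was not tested. The share with *Pax7* or *Myf5* was lower in the *Spp1*-rich than in the *Spp1*-free cycling cells, at 32.3% against 52.1% in *mdx* and 13.5% against 42.4% in D2-*mdx*. Outside the cycling class, 14 D2-*mdx* cells held at least 3 *Spp1* UMIs, and all 14 held *Cdh15* or *Des* while 5 also held *Tyrobp* or *Fcer1g*, a share of 35.7% against 3.38% of those without *Spp1*. Whether those 5 barcodes held a pair of cells was not tested. The *Spp1*-rich cells were deep, with a median of 16323.5 UMIs in *mdx* and 18072 in D2-*mdx* before thinning.

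RNA released by 1 cell type should carry that type's genes into other droplets in 1 ratio. The level of *Spp1* in each class was therefore expressed as a percent of its level in the white blood cell-like cells of the same library and set beside the same percent for the 8 white blood cell markers. In *mdx*, *Spp1* in cycling cells stood at 83.4% of its white blood cell-like level and the markers at 0 to 0.181%. It stood at 6.96% in DMD-enriched-like cells (markers up to 0.704%) and at 1.26% in MuSC-like cells (0.0422 to 0.811%), above all 8 markers in each. In D2-*mdx*, *Spp1* stood at 8.001% in cycling cells (markers 0.0911 to 0.762%), 0.858% in DMD-enriched-like cells (0.0723 to 0.424%) and 0.504% in MuSC-like cells (0.0902 to 0.435%). It again exceeded all 8 markers, by little in MuSC-like cells. In endothelial-like cells of D2-*mdx* the percent was 0.351%, above 5 of the 8 markers, and in pericyte-like cells 0.377%, above 1. In *mdx*, *Spp1* stood at 4.54 CPM in endothelial-like and 3.96 CPM in pericyte-like cells, against 613 CPM in white blood cell-like cells. That was also above all 8 markers, which reached at most 0.156% in each. Standing above all 8 markers in *mdx* thus does not set MuSC-like cells apart from those classes. Fibroblast-like cells also held *Spp1*, at 521 CPM in *mdx* and 395 CPM in D2-*mdx*, beside the Schwann-like cells given above. In *mdx* the Schwann-like cells, at 1147 CPM, and not the white blood cell-like cells were the highest *Spp1* class. No such comparison was made with Schwann markers, so these percents do not bear on RNA from Schwann-like cells.

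**Figure D5:**
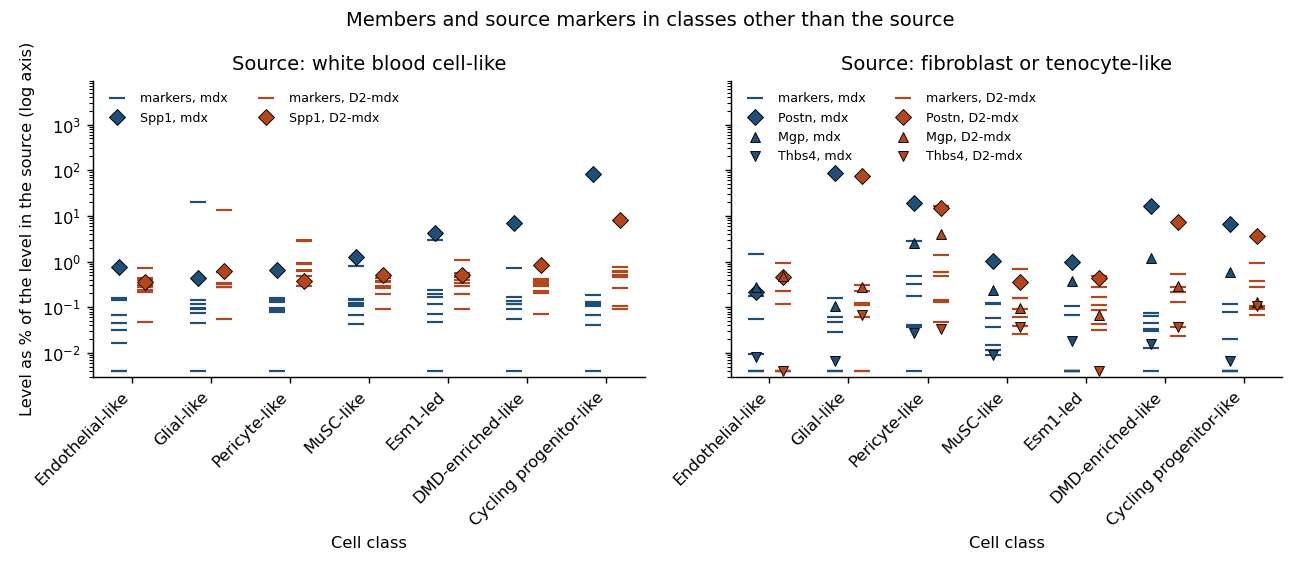
Level in MuSC-like, DMD-enriched-like, cycling and other classes as a percent of the level in a source class of the same library, on a log axis. The left panel shows *Spp1* and 8 markers against white blood cell-like cells, and the right panel *Postn*, *Mgp* and *Thbs4* and the fibroblast markers without *Dpt* against fibroblast-like cells. Values at 0 are drawn at the lowest line, and *Spp1* in cycling cells (83.4% in *mdx*, 8.001% in D2-*mdx*) stands above every marker.

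*Mgp* encodes matrix Gla protein, an inhibitor of calcification. Its UMIs numbered 54 in B10 (1.35 CPM) and 36 in DBA (1.196 CPM), and 3252 in *mdx* (80.5 CPM) and 461 in D2-*mdx* (13.3 CPM). The *mdx* library was above the other 3, and D2-*mdx* was in turn above both controls. The log2 ratios were 5.90 (5.51 to 6.31) in *mdx* over B10, 3.48 (2.99 to 4.01) in D2-*mdx* over DBA and -2.60 (-2.74 to -2.46) in D2-*mdx* over *mdx*. Fibroblast-like cells stood at 14925 CPM in *mdx* and 9526 CPM in D2-*mdx*, the highest class in both, and pericyte-like cells at 383 and 389 CPM. The DMD-enriched-like class held 67.3% of the myogenic *Mgp* UMIs in *mdx* (175 CPM) and 42.1% in D2-*mdx* (27.5 CPM). At 3 or more UMIs there were 85 cells in *mdx* against 4.16 under an even spread (231 against 220 without thinning, past the limit only when thinned), and 3 cells in D2-*mdx* against 0.0310, too few to count as gathered. White blood cell-like cells held *Mgp* in 5.26% (2.30 to 10.1%) of D2-*mdx* cells, against 3.03% (2.53 to 3.60%) of myogenic cells there. The intervals overlapped, so the myogenic share is not shown to exceed the white blood cell-like share, and the source of those UMIs was not tested. In *mdx* the same shares were 0.952% (0.0241 to 5.19%) and 7.46% (6.74 to 8.24%).

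*Postn* encodes periostin, a collagen-binding protein of wounds and fibrosis. It had 21 UMIs in B10 (0.526 CPM) and 51 in DBA (1.69 CPM), and 4794 in *mdx* (119 CPM) and 1998 in D2-*mdx* (57.7 CPM). Both diseased libraries exceeded both controls, and *mdx* exceeded D2-*mdx* by a log2 ratio of 1.04, given as -1.04 (-1.12 to -0.97) for D2-*mdx* over *mdx*. The ratio was 7.82 (7.20 to 8.51) in *mdx* over B10 and 5.09 (4.69 to 5.52) in D2-*mdx* over DBA. Within the DMD-enriched-like class *Postn* stood at 313 CPM in *mdx* and 179 CPM in D2-*mdx*, and this class held 81.4% and 63.1% of the myogenic *Postn* UMIs in 20.2% and 14.2% of the myogenic cells. *Postn* was among the leading genes of that class although the 10 genes were left out of the features used for clustering. Cycling cells followed at 127 and 87.8 CPM, and MuSC-like cells outside the *Esm1*-led cluster stood at 20 and 8.51 CPM. Without the DMD-enriched-like class the ratio was still 5.91 (5.29 to 6.61) in *mdx* over B10 and 4.21 (3.77 to 4.69) in D2-*mdx* over DBA, while D2-*mdx* over *mdx* was -0.26 (-0.40 to -0.12).

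In glial-like and pericyte-like cells *Postn* was high in every strain and differed much less than in myogenic cells. Not every other class was high, and endothelial-like cells stood at 4.09 CPM in *mdx*, the lowest class there, and 11.4 CPM in D2-*mdx*. Glial-like cells stood at 656 CPM in B10 and 773 in DBA, and 1692 in *mdx* and 1880.5 in D2-*mdx*, and pericyte-like cells at 595 and 506 CPM in B10 and DBA and 377 and 367 CPM in *mdx* and D2-*mdx*. Pericyte-like cells were thus lower in both diseased libraries than in their controls, with log2 ratios of -0.66 (-0.79 to -0.53) and -0.46 (-0.54 to -0.39). Fibroblast-like cells, with at least 20 cells only in the diseased libraries, stood at 1943 CPM in *mdx* and 2468 CPM in D2-*mdx*.

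After thinning, periostin transcripts were gathered in few cells. In *mdx*, 125 myogenic cells held at least 3 UMIs against 8.05 under an even spread, and 108 of them were DMD-enriched-like. In D2-*mdx* it was 30 cells against 0.805, and 22 were DMD-enriched-like. Without thinning the *mdx* call was lost, at 525 cells against 483. Within the DMD-enriched-like class alone, 40.8% of *mdx* and 26.5% of D2-*mdx* cells held *Postn*, with 108 cells against 56.7 and 22 cells against 6.15 at 3 or more UMIs. White blood cell-like cells, which should lack it, held it in 1.90% (0.232 to 6.71%) of *mdx* and 3.95% (1.46 to 8.39%) of D2-*mdx* cells, against 11.9% (11.0 to 12.8%) and 6.61% (5.88 to 7.41%) of myogenic cells. The intervals overlapped in D2-*mdx*. Unthinned, the shares were 7.62% against 20.4% in *mdx* and 10.5% against 12.7% in D2-*mdx*. The *Postn*-rich cells held *Pax7* or *Myf5* in 85.6% in *mdx*, against 85.95% of cells without *Postn*, and in 66.7% against 83.1% in D2-*mdx*. In D2-*mdx*, 10% of these 30 cells held at least 2 UMIs of white blood cell markers against 3.45%. Against fibroblast-like cells, *Postn* in DMD-enriched-like cells stood at 16.1% in *mdx* and 7.24% in D2-*mdx*, where 7 of 8 fibroblast markers lay lower in each and at most 0.0762% and 0.537%. The exception was *Dpt* (dermatopontin), at 22.7% and 51.0%, which MuSC-like cells also held at a high level (46.0% and 86.9%), so it marks no source here. In MuSC-like cells *Postn* stood at 1.021% in *mdx*, again above 7 markers, and at 0.358% in D2-*mdx*, above 6. Glial-like cells, also rich in *Postn*, were not used as a source in this way.

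*Tnc* encodes tenascin-C, a large hexameric protein of injured tissue and stem cell niches. Its UMIs numbered 20 in B10 (0.501 CPM) and 14 in DBA (0.465 CPM), and 1173 in *mdx* (29.0 CPM) and 660 in D2-*mdx* (19.1 CPM). Both diseased libraries stood far above both controls, whose difference was not detectable at this depth. The log2 ratios were 5.86 (5.22 to 6.57) and 5.36 (4.60 to 6.24) over the controls and -0.61 (-0.75 to -0.47) in D2-*mdx* over *mdx*. For D2-*mdx* over DBA it was 0.79 over all filtered cells and 0.85 in myogenic cells without any source marker, 28 of them in DBA. In so few cells a count of 0 would take the floor of 3 UMIs, so 0.85 can rest on that floor. Fibroblast-like cells were the highest *Tnc* class in *mdx*, at 316 CPM, and in D2-*mdx*, at 117 CPM. In the controls it was pericyte-like cells, at 63.4 CPM in B10 and 103 CPM in DBA, and those of *mdx* stood at 60.1 CPM. Among the myogenic classes of the diseased libraries, and unlike the previous genes, *Tnc* was highest in the MuSC-like cluster whose top gene was *Esm1*. There it stood at 190 CPM in *mdx* and 94.4 CPM in D2-*mdx*, the latter with an interval that overlapped the fibroblast-like one. In the controls this cluster stood at 0.183 CPM in B10 and 0.813 in DBA, where it had 491 and 310 cells. That cluster held 47.3% and 41.97% of the myogenic *Tnc* UMIs in 6.51% and 7.72% of the cells. Of the 27 *mdx* cells with at least 3 UMIs (0.228 under an even spread), 26 were in it, and all 8 such cells of D2-*mdx* were (0.0310 under an even spread). These *Tnc*-rich cells held *Pax7* or *Myf5* in 48.1% in *mdx* and 50% in D2-*mdx*, against 86.4% and 83.6% of the cells without *Tnc*. *Tnc* was itself one of the leading genes of the *Esm1*-led cluster, and also of a like cluster at a lower resolution. In the *Esm1*-led cluster of *mdx*, 22.3% of cells held *Tnc* after thinning, against 0.918% of other MuSC-like cells. At 60.1% of the fibroblast-like level in *mdx* and 81.0% in D2-*mdx*, *Tnc* in these cells stood above all 8 fibroblast markers.

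Some pairs of the genes shared more cells than the product of their shares gives, and other pairs shared fewer. In *mdx*, 105 thinned cells held both *Mgp* and *Postn* where the product of their shares gives 42.8, 34 held both *Spp1* and *Mgp* (12.2), 32 both *Spp1* and *Postn* (19.5) and 19 both *Spp1* and *Tnc* (6.39). In D2-*mdx*, 33 held both *Spp1* and *Postn* where the product gives 36.2, 24 both *Spp1* and *Mgp* (16.6) and 29 both *Spp1* and *Tnc* (14.9). Pairs with *Cyr61* or *Ctgf* were among those below the product. In *mdx*, 50 cells held both *Spp1* and *Cyr61* (77.2) and 6 both *Postn* and *Ctgf* (19.8). In D2-*mdx*, 204 held both *Spp1* and *Cyr61* (257) and 15 both *Spp1* and *Ctgf* (32.8). Deep thinning leaves few UMIs per gene, so these are counts of cells and not tests.

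The thrombospondins are secreted multimers, and the protein of *Thbs1* binds CD36, CD47 and latent TGF-beta. The thrombospondin genes differed in direction. *Thbs1* had 105 UMIs in B10 (2.63 CPM) and 151 in DBA (5.02 CPM), and 1020 in *mdx* (25.3 CPM) and 1134 in D2-*mdx* (32.7 CPM). It was higher in both diseased libraries, by log2 ratios of 3.26 (2.97 to 3.57) and 2.71 (2.46 to 2.96). Over all filtered cells, pericyte-like ones included, the second was 0.23. Pericyte-like cells held more *Thbs1* than every myogenic class in each library, at 204 CPM in B10, 168 in DBA, 103 in *mdx* and 79.7 in D2-*mdx*. Their log2 ratio of *mdx* over B10 was -0.99 (-1.22 to -0.75). White blood cell-like cells of DBA stood at 227 CPM and fibroblast-like cells of *mdx* at 187 CPM. MuSC-like cells outside the *Esm1*-led cluster held 45.4% and 43.6% of the myogenic *Thbs1* UMIs in *mdx* and D2-*mdx*, less than their 63.2% and 63.0% of the cells. DMD-enriched-like cells held 33.7% and 21.2% of the UMIs in 20.2% and 14.2% of the cells. Cycling cells held 7.45% and 24.0% in 3.71% and 7.74% of the cells. Within all MuSC-like cells the ratio to the control was 3.62 (3.28 to 3.99) and 2.63 (2.35 to 2.92). At 3 or more UMIs there were 19 cells in *mdx* against 0.247 under an even spread and 13 in D2-*mdx* against 0.446. Of the 19, all held *Pax7* or *Myf5* and 0 held 2 UMIs of white blood cell markers (up to 15.8% of cells with such UMIs are allowed). In D2-*mdx* 92.3% of the 13 held *Pax7* or *Myf5* and 15.4% held 2 such UMIs. After thinning, glial-like cells held *Thbs1* in 1.15% (0.315 to 2.93%) of *mdx* and 1.65% (0.450 to 4.16%) of D2-*mdx* cells. The myogenic shares there were 4.91% (4.32 to 5.56%) and 7.09% (6.33 to 7.92%). In DBA it was 6.25% (0.766 to 20.8%) of 32 glial-like cells against 1.41% (0.999 to 1.93%) of myogenic cells, and these intervals overlapped.

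*Thbs2* went the other way and was lower in both diseased libraries. It had 2859 UMIs in B10 (71.6 CPM) and 2194 in DBA (72.9 CPM), and 463 in *mdx* (11.5 CPM) and 654 in D2-*mdx* (18.9 CPM). The controls stood together, with a log2 ratio of 0.03 (-0.05 to 0.11) in DBA over B10, and both diseased libraries lay lower, by -2.64 (-2.79 to -2.50) in *mdx* over B10 and -1.95 (-2.08 to -1.82) in D2-*mdx* over DBA. Among MuSC-like cells alone the ratios were -2.22 (-2.39 to -2.06) and -1.54 (-1.68 to -1.40). Fibroblast-like cells were the highest class in the diseased libraries, at 273 and 255 CPM. In the controls *Thbs2* was not particular to MuSC-like cells. In B10 the interferon-responding myogenic cells stood at 82.6 CPM and MuSC-like cells outside the *Esm1*-led cluster at 78.2 CPM. In DBA such MuSC-like cells stood at 77.1 CPM and glial-like cells at 70.1 CPM, and the intervals overlapped in both controls. In B10, 19.4% of thinned myogenic cells held *Thbs2* and 31 held at least 3 UMIs against 8.48 under an even spread, and in DBA 19.1% held it and 13 had at least 3 UMIs against 4.21. Both calls were lost without thinning (254 cells against 154 and 210 against 143). The 20 white blood cell-like cells of DBA held *Thbs2* in 20% (5.73 to 43.7%), and B10 had 1 such cell. With so few cells the myogenic share of DBA is not shown to exceed that share, and the source of those UMIs was not tested. In *mdx* and D2-*mdx* the white blood cell-like shares were 1.90% (0.232 to 6.71%) and 1.32% (0.160 to 4.67%), against 3.73% and 6.40% of myogenic cells.

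*Thbs4*, a thrombospondin of tendon and injured muscle, stayed below 10 CPM in the myogenic cells of all 4 libraries, with 1 UMI in B10 and 3 in DBA, and 25 in *mdx* (0.619 CPM) and 71 in D2-*mdx* (2.05 CPM). It stood at 5708 CPM in fibroblast-like cells of *mdx* and 4312 CPM in those of D2-*mdx*, where the next class was Schwann-like at 17.4 and 17.2 CPM. In MuSC-like cells its level was 0.00889% of the fibroblast-like level in *mdx* and 0.0373% in D2-*mdx*, above 1 of the 8 fibroblast markers in each. Among myogenic cells, 0.145% (0.0584 to 0.299%) of *mdx* and 0.625% (0.409 to 0.915%) of D2-*mdx* cells held a *Thbs4* UMI. The white blood cell-like shares were 1.90% (0.232 to 6.71%) and 1.32% (0.160 to 4.67%), each from 2 cells. The intervals overlapped in both libraries, so neither class is shown to hold *Thbs4* more often. The source of the myogenic *Thbs4* UMIs was not tested.

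*Sparc* encodes osteonectin, a collagen chaperone of the matrix, and was the most abundant of the 10 genes in every library. It stood at 1173 CPM in B10 (46839 UMIs) and 1376 CPM in DBA (41391), and 2427 CPM in *mdx* (98050) and 2145 CPM in D2-*mdx* (74298). Both diseased libraries were above both controls, by log2 ratios of 1.05 (1.03 to 1.07) and 0.64 (0.62 to 0.66). In MuSC-like cells alone the ratios were 1.01 (0.99 to 1.03) and 0.75 (0.73 to 0.77), and without the DMD-enriched-like class *mdx* over B10 was 0.91, under 2-fold. *Sparc* was lower than in the controls in cycling cells, at -0.30 (-0.43 to -0.17) and -0.21 (-0.32 to -0.10), and in differentiating cells of *mdx*, at -0.44 (-0.58 to -0.30), though B10 had under 20 cells of both classes. After thinning, 87.7% of B10, 96.0% of *mdx*, 93.7% of DBA and 95.6% of D2-*mdx* myogenic cells held it, against 40.0% and 40.1% of white blood cell-like cells in *mdx* and D2-*mdx*. With nearly all cells holding the gene, the count of cells with several UMIs is no measure of gathering. Fibroblast-like cells reached 12155 and 10756 CPM, and the white blood cell-like cells were the lowest class at 373 and 449 CPM.

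*Ctgf* and *Cyr61* encode CCN proteins, growth factor-binding proteins whose genes answer to mechanical load and TGF-beta. *Ctgf* stood at 30.8 CPM in B10 (1230 UMIs) and 19.2 in DBA (577), and 17.2 in *mdx* (694) and 27.8 in D2-*mdx* (963). It was lower in *mdx* than in B10, at a log2 ratio of -0.84 (-0.98 to -0.71), and higher in D2-*mdx* than in DBA, at 0.54 (0.39 to 0.69). The second did not hold in every class: it was 1.03 (0.87 to 1.195) in MuSC-like cells but -0.67 (-1.06 to -0.29) in the *Esm1*-led cluster and -1.38 (-2.33 to -0.27) in DMD-enriched-like cells. *Cyr61* stood at 288 CPM in B10 (11486 UMIs) and 153 in DBA (4611), and 523 in *mdx* (21136) and 446 in D2-*mdx* (15444), with ratios of 0.86 (0.83 to 0.90) and 1.54 (1.49 to 1.59), the second 0.90 over all filtered cells. Both diseased libraries exceeded both controls, and the 2 controls differed by -0.91 (-0.96 to -0.86) in DBA over B10. Within MuSC-like cells the *Cyr61* ratios were 1.25 (1.21 to 1.29) and 2.03 (1.97 to 2.08), past 2-fold in both comparisons. *Ctgf* was gathered in few cells in every library, with 48, 29, 11 and 39 cells at 3 or more UMIs in B10, *mdx*, DBA and D2-*mdx* against 0.575, 0.242, 0.0832 and 0.709. *Cyr61* had 426 such cells in B10 and 145 in DBA against 206 and 27.9, and 1103 in *mdx* and 877 in D2-*mdx* against 1223 and 866. In the diseased libraries its level was too high for a limit of 3 UMIs to tell the spreads apart. At 8 or more UMIs there were 298 cells in *mdx* and 188 in D2-*mdx* against 2.18 and 0.947 under an even spread, and at 0 UMIs 2554 and 2207 against 846 and 867, so the UMIs of *Cyr61* were uneven there too.

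By the limit of 3 UMIs after thinning, 3 of the genes were gathered in few myogenic cells in each control, 6 in *mdx* and 5 in D2-*mdx*. These numbers cannot be compared between libraries, because that limit is not informative for *Sparc* in any library or for *Cyr61* in the diseased ones. When classes of at least 20 cells were ranked, 3 genes were highest in a myogenic class in B10 (*Thbs2*, *Thbs4*, *Ctgf*), 0 in *mdx*, 3 in DBA (*Spp1*, *Thbs2*, *Thbs4*) and 1 in D2-*mdx* (*Cyr61*). In all 7 of these cases the counting interval overlapped that of the next class, and *Thbs4* in both controls and *Spp1* in DBA rest on few UMIs. Fibroblast-like cells were too few to rank in B10 and DBA. In B10 the highest *Spp1* class was pericyte-like at 56.8 CPM, from 60 UMIs in 97 cells, and after thinning all 19 remaining UMIs were in 1 cell.

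Of the genes related to the 10, *Tnxb*, *Sparcl1*, *Wisp2* and *Cd44* passed 2-fold the same way in both disease comparisons. Of 22 other matricellular genes, 6 reached the minimum in *mdx* over B10, with 2 higher, 2 lower and 2 between, and 5 in D2-*mdx* over DBA, with 3 higher, 1 lower and 1 between, beside the 4.54% higher and 5.09% lower and the 5.79% and 5.90% of all genes given above. *Tnxb*, tenascin-X, was lower in both (-3.50 and -3.05), and *Sparcl1* (1.87 and 3.68) and *Wisp2*, a further CCN gene (1.42 and 3.09), were higher in both. *Sparcl1* in both comparisons and *Wisp2* in D2-*mdx* over DBA reached 10 CPM only in the diseased library, and *Spock3* only in B10. The share past 2-fold in this list thus depends in part on the minimum, and nothing is read from it. Of 15 receptor genes, 9 reached the minimum in each comparison, with 1 higher and 0 lower in *mdx* over B10 and 1 higher and 1 lower in D2-*mdx* over DBA. The receptor higher in both was *Cd44*, which binds osteopontin and hyaluronan, at 30.8, 80.3, 16.2 and 63.0 CPM in B10, *mdx*, DBA and D2-*mdx* and ratios of 1.38 and 1.96. Of 11 genes that answer to TEAD or TGF-beta signalling, 10 reached the minimum in each, with 0 past 2-fold in *mdx* over B10 and 1 higher and 1 lower in D2-*mdx* over DBA.

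Over 33 points, each a class of at least 50 cells in 1 library, the genes with the pattern most like *Spp1* were *Capg* (Pearson r 0.84 of log levels), *S100a4* (0.82), *Reep5* (0.80), *Rgs10* (0.80) and *Bri3* (0.80), out of 12677 genes compared. Those most like *Postn* were *Col1a2* (0.88), *Col1a1* (0.85), *Has2* (0.83), *Gpc3* (0.82) and *Col6a3* (0.82). The points share libraries, and the coefficients are a description only.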

How the data were processed

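The deposited values are raw UMI counts per gene and barcode, which the authors made with Cell Ranger 3.0.1 against mm10. Barcodes were kept where they had no fewer than 1000 and no more than 5000 genes and mitochondrial UMIs did not exceed 8%, and doublets predicted by Scrublet (Scanpy 1.11.5) were removed, 91 to 356 per library. Total counts per library were 43542853 to 75482888. Clustering used Seurat 5.3.0 on 2000 variable features without the 10 genes, 30 dimensions and CCA integration, with a resolution of 0.1 overall and 0.3 within the myogenic clusters. At 0.2 the cycling and DMD-enriched-like cells shared a cluster, so 0.3 was chosen after seeing the data. Clusters were named from fixed markers, and 24 cells led by *Cd74* were left out. The rebuilt names may differ from those of the study.

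Counts were summed per class and library. With 1 library per strain no test was made. Levels have 95% exact Poisson intervals, shares Clopper-Pearson intervals, and ratios exact binomial intervals. A call is a 2-fold ratio with at least 10 CPM in either library. Gathered means at least 5 cells with 3 or more UMIs and at least 2 times the even number. In the ratio script, simulated counts with known folds were recovered. The 10 members and every list were chosen with earlier results of these data known. All members were named, and from each other list up to 5 genes past 2-fold in both disease comparisons. R 4.3.3, Python 3.11.15, edgeR 4.0.16 and DESeq2 1.42.0 (scaling only) were used.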

Additional observations from a re-analysis of the deposited data

Results flagged for a closer look

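B10 held 4739 barcodes under 1000 genes, with a median of 404 UMIs, which no comparison used, while the other libraries held 11 to 21. In them *Spp1* stood at 2.98 CPM (8 UMIs), *Mgp* at 61.5 CPM, *Postn* at 19.4 CPM and *Thbs1* at 8.20 CPM, each above its level in the myogenic cells of that library (0.0501, 1.35, 0.526 and 2.63 CPM). *Thbs2* (46.2 against 71.6 CPM) and *Sparc* (458 against 1173 CPM) lay below. The hemoglobin gene *Hbb-bs* stood at 20138 CPM in them against 157 in B10 myogenic cells, and *Acta1* at 183 against 10.2, while *Fos* lay below (3432 against 8765). Of the 4739 barcodes, 985 met the limit on mitochondrial UMIs. What these barcodes hold was not tested.

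*Ctgf* was lower in *mdx* than in B10 (log2 ratio -0.84) and higher in D2-*mdx* than in DBA (0.54), with each group a single library. The difference was not tested, and the opposite signs did not hold throughout. D2-*mdx* over DBA was -0.88 in cells without any source marker, -0.67 in the *Esm1*-led cluster and -1.38 in DMD-enriched-like cells. Over all filtered cells the ratios were 0.015 and -0.10.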

How the results depend on the processing

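No paired analysis was possible because each strain had 1 library, and for the same reason no library could be left out. Across the alternatives the ratios of the 10 genes kept their sign in 137 of 138 values for *mdx* over B10, 127 of 129 for D2-*mdx* over DBA, 125 of 130 for D2-*mdx* over *mdx* and 100 of 113 for DBA over B10, where most genes had few UMIs. Called values that turned were *Mgp* in D2-*mdx* over *mdx*, 0.059 over all filtered cells against -2.60, and *Spp1* in the same pair, -0.16 in cells without source markers (*Dpt* and *Cspg4* not counted) against 1.54. The cause was not tested. Calls of the disease comparisons that fell under 2-fold were *Tnc* (0.79), *Thbs1* (0.23) and *Cyr61* (0.90) in D2-*mdx* over DBA over all filtered cells, *Tnc* there (0.85) in cells without any source marker, and *Sparc* in *mdx* over B10 without the DMD-enriched-like class (0.91). With myogenic cells set by a marker gate (38 and 150 cells), *Spp1* in *mdx* over B10 was 0.72. Ratios from so few cells, this 0.72 and the 0.85 of *Tnc* among them, can rest on the floor of 3 UMIs used for a count of 0. That gate left under 20 cells in DBA and D2-*mdx* and was not run for their pairs. At 50 CPM, 4 genes were past 2-fold in D2-*mdx* over DBA. Without thinning, the gathered calls of *Thbs2* and *Cyr61* in both controls, *Spp1* in both diseased libraries and *Mgp* and *Postn* in *mdx* were lost, and those of *Thbs1* in both controls, *Thbs2* in both diseased libraries and *Mgp* in D2-*mdx* were gained. Genes gathered in few cells numbered 1 in DBA at 5 UMIs. In cells without any source marker (208, 28 and 209 cells) they numbered 1 in B10, 0 in DBA and 1 in D2-*mdx*, and 3 in D2-*mdx* with *Dpt* and *Cspg4* not counted. Genes highest in a myogenic class numbered 1 in *mdx* and 3 in D2-*mdx* with doublets kept, and 1 in *mdx* at resolution 0.2. The settings with *Dpt* and *Cspg4* not counted, without the DMD-enriched-like class and at resolution 0.2 were chosen after seeing the data.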
